A study of Mus musculus with 8 samples.

Results

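Transcripts of 10 enzyme genes of the hepatic methionine cycle and of transsulfuration were followed in mouse liver RNA: Mat1a, Mat2a, Mat2b, Gnmt, Ahcy, Bhmt, Bhmt2, Mtr, Cbs and Cth. They were taken by symbol from a fixed list, and all 10 were found among the 21049 genes of the deposited table. The study compared 4 samples given alcohol with 4 control samples given saline, to ask what alcohol changes in the liver. All 8 are labelled wild type, from C57BL/6 mice, an inbred strain, and all carry 1 batch label. The labels name liver as the tissue, hepatocyte as the cell type and AML12, a mouse hepatocyte line, as the cell line. The dose and duration of alcohol, the age of the mice and whether each sample came from a separate mouse are not stated in the labels or design text. The p-values therefore measure sample-to-sample spread, which may be technical.

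The methionine cycle turns methionine into S-adenosylmethionine (SAM), the methyl donor of most methylation reactions, and then into S-adenosylhomocysteine and homocysteine. Homocysteine is either methylated back to methionine, with betaine or methylfolate as the donor, or passed by transsulfuration to cystathionine and cysteine, a building block of glutathione and taurine. Hepatocytes run most of this chemistry, and alcohol is known to disturb it in the liver.

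Library totals recovered from the values were 37132631 to 38407511 reads in the alcohol samples and 33872595 to 34789814 reads in the control samples. Levels are in FPKM, which divides the reads of a gene by its length and by the total of its library. Hepatocyte markers summed to 61480 to 70130 FPKM with alcohol and 63930 to 69400 FPKM in controls, with 1 of 8 tested higher and 2 lower. All 8 endothelial markers were higher with alcohol, with sums of 71.53 to 87.29 FPKM against 16.38 to 24.57 FPKM in controls and no marker at 0. Stellate cell and fibroblast markers summed to 100.7 to 146.9 FPKM with alcohol and 43.76 to 73.89 FPKM in controls, with 3 of 8 higher and 2 lower. Kupffer cell and macrophage markers summed to 62.87 to 103.1 FPKM with alcohol and 50.04 to 152.5 FPKM in controls, with 1 of 7 tested lower. Of the genes of periportal hepatocytes 3 of 9 were higher and 4 lower, and of those of pericentral hepatocytes 4 of 8 were higher and 3 lower. None of 2 tested lymphocyte and neutrophil markers and not the 1 tested cholangiocyte marker (Spp1, unadjusted p = 0.0365) passed the limma test, and 1 of 5 red blood cell markers was lower. With 1 library left out these counts moved by at most 1, except that 6 periportal genes were lower without alcohol replicate 3, that 0 to 2 were higher (0 without control replicate 2, 3 or 4, and 1 without alcohol replicate 1 or 3), and that 6 Kupffer cell markers were lower without control replicate 2. Of all tested genes 44.2% were higher and 13% lower. The periportal genes called higher were 0 with median-of-ratios scaling or with scaling outside the 100 most abundant genes. They were also 0 in a fit of all 21049 genes, which called 0 hepatocyte markers in either direction. RNA of cells other than hepatocytes was thus present in both groups, and its part in the results on the enzymes was not tested. In tissue, fewer cells of a type and less RNA per cell cannot be told apart.

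Of the 10 enzyme genes, 6 were higher with alcohol and 0 were lower in the limma test, with 0 lower also at an unadjusted p under 0.05 and by limma voom on recovered reads. The 6 were Mat1a, Mat2a, Mat2b, Gnmt, Bhmt and Bhmt2, while Ahcy, Cbs and Cth did not pass the threshold and Mtr was below the minimum of 1 FPKM. Among all 9228 genes tested in the same limma fit 44.2% were higher and 13% lower (57.2% in either direction). The count of 6 among 9 tested enzymes is read against that background. The groups did not overlap for those 6 genes, as for 50.2% of all tested genes. The median log2 change was 0.34 over the 9 tested enzymes and 0.24 over all tested genes. Mat2a, Gnmt and Mat1a each passed the test with a log2 change of at least 1, as did 7.08% of all tested genes, and they ranked 319, 324 and 389 of 9228 from the largest rise. The split between higher and lower genes depended on the scaling. It was 4080 higher and 1203 lower as deposited, and 2170 higher and 2616 lower with median-of-ratios scaling, which moved the median of all tested genes to -0.03. Under that scaling 3 enzymes were higher (Mat1a, Mat2a and Gnmt) and 1 was lower (Cbs).

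**Figure D1:**
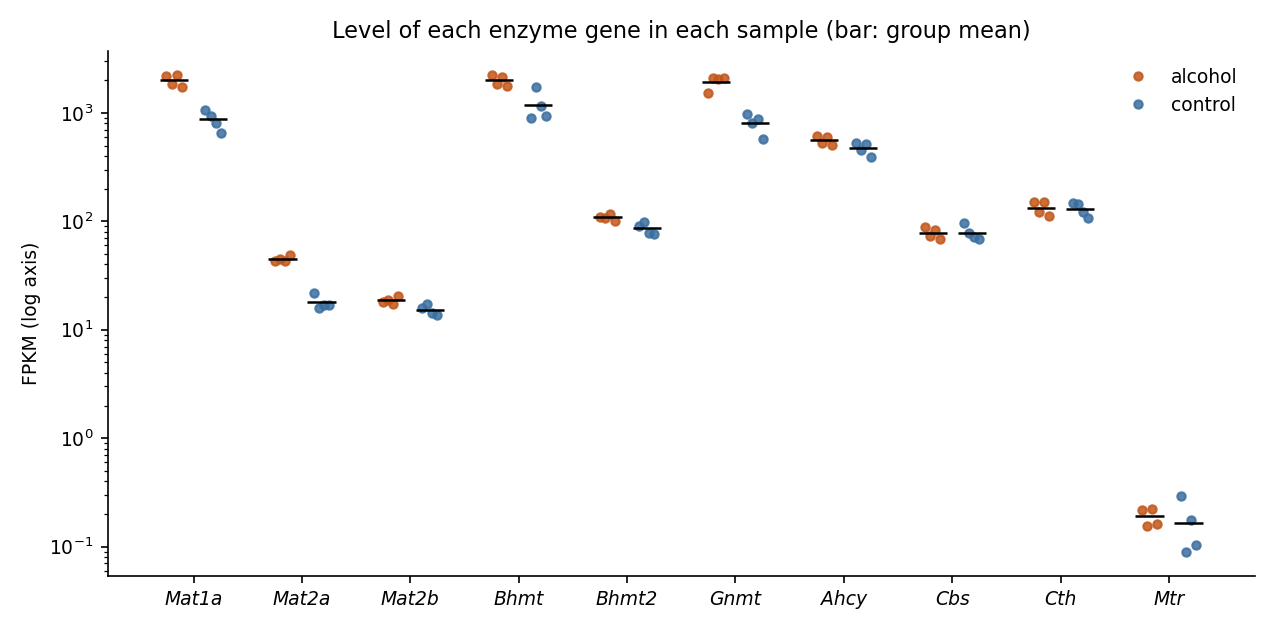
FPKM of the 10 enzyme genes on a log axis, 1 point per sample, with the 4 alcohol samples left of the 4 control samples and a bar at each group mean. Mat1a, Mat2a and Gnmt show the widest gaps between the groups, and the points of Ahcy, Cbs, Cth and Mtr overlap between the groups.

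The levels spanned about 4 orders of magnitude on the FPKM scale, which is per length and so allows genes to be set side by side. In alcohol samples the order of mean levels was Bhmt (2006 FPKM), Mat1a (1996), Gnmt (1949), Ahcy (564.9), Cth (133.7), Bhmt2 (108.6), Cbs (78.42), Mat2a (45.13), Mat2b (18.68) and Mtr (0.1894), and in control samples the order was the same. Bhmt and Mat1a overlapped in both groups, and so did Mat1a and Gnmt. Cth and Bhmt2 overlapped with alcohol only, and Bhmt2 and Cbs, and Mat2a and Mat2b, overlapped in controls only. Together the 10 genes took 1.642%, 1.468%, 1.69% and 1.412% of the reads in the alcohol libraries, against 0.8863%, 0.9665%, 0.8129% and 0.6462% in the control libraries. The lowest alcohol share was above the highest control share.

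The upstream sequences of 3 genes that rose are printed here because they differ in base composition and in short motifs. The RefSeq table matched 8 of the 10 genes on GRCm38.p6, with Mat1a and Cth named only. Each line holds the 250 bases before the annotated start, 5′ to 3′ on the gene's strand, from chr6:72439557-72439806 (Mat2a), chr13:93637759-93638008 (Bhmt) and chr17:46729166-46729415 (Gnmt), all on the minus strand. These starts are those of RefSeq. The GENCODE gene of Bhmt reaches to chr13:93637961, so part of the printed Bhmt stretch lies inside that gene. Capitals mark TATAAA in Mat2a and AGGTCA, or its reverse complement TGACCT, in Bhmt and Gnmt.
Mat2a: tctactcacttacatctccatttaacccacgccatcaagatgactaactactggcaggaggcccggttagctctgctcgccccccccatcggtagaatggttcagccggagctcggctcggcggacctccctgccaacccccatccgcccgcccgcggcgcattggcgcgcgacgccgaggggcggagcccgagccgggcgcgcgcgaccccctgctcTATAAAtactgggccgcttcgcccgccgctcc
Bhmt: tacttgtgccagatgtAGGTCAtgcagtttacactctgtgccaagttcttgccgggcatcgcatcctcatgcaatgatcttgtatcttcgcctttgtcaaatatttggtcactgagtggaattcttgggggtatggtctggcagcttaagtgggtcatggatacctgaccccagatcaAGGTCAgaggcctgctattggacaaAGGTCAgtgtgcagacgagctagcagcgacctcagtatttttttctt
Gnmt: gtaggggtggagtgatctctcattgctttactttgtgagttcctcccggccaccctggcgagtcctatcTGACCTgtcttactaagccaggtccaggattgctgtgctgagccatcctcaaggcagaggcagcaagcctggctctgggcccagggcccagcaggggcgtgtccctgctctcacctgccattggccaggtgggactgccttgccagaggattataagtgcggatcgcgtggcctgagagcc
The G and C content was 67.6% for Mat2a, 48% for Bhmt and 60.4% for Gnmt. Mat2a held TATAAA 32 bases before its start, as did 13.6% of the 32851 promoters in the table, on either strand and with 50 more bases after the start. AGGTCA, the core recognised by many nuclear receptors, stood in Bhmt at 234, 72 and 47 bases before the start, in Gnmt at 181 and in Ahcy at 205, and 16.3% of all promoters held it. These 2 motifs were chosen after the sequences were seen. Of the other motifs searched on both strands, TGATGNAA (core of the ATF4 composite element) and TGACNNNGC (core of the antioxidant response element, which can overlap TGACCT) were found in 0 of 8 and CACGTG (E-box) in 1, Cbs, against 3.97%, 12.4% and 7.15% of all promoters. A match is a description of the letters and not a binding site.

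SAM synthesis was represented by 3 genes. Mat1a encodes the methionine adenosyltransferase of adult hepatocytes, Mat2a the catalytic subunit of the form found in most other cells and in dividing or injured liver, and Mat2b the regulatory subunit of that second form. Mat1a (chr14:41105035-41124412, plus strand) stood at 2177, 1832, 2241 and 1736 FPKM in alcohol replicates 1 to 4, against 1073, 939.2, 808.4 and 657.3 FPKM in control replicates 1 to 4. Every alcohol sample was above every control sample. The means were 1996 ± 249.7 FPKM with alcohol and 869.5 ± 178.1 FPKM in controls (SD, n = 4 each), a log2 change of 1.21 ± 0.17 (SE; limma adjusted p = 0.000229).

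Mat2a (chr6:72432799-72439558, minus strand) stood at 43.27, 45.25, 43.39 and 48.61 FPKM with alcohol, against 21.99, 16, 17 and 16.8 FPKM in controls. The control sample that stood highest, replicate 1, was still below every alcohol sample. The means were 45.13 ± 2.49 FPKM with alcohol and 17.95 ± 2.73 FPKM in controls (SD, n = 4 each), a ratio of 2.51 and a log2 change of 1.29 ± 0.11 (SE; limma adjusted p = 1.03e-05). Exons of Mat2a overlap Particl on the other strand, and a processed pseudogene, Gm9523, is 94.9% identical over 1065 bases, so its reads are uncertain to that extent. Mat2b (chr11:40679314-40695203, minus strand) stood at 18.05, 18.86, 17.41 and 20.42 FPKM with alcohol, against 15.9, 17.1, 14.22 and 13.69 FPKM in controls. The groups were close but did not overlap, and the log2 change was 0.28 ± 0.10 (limma adjusted p = 0.035). That call was lost without alcohol replicate 2 (0.0732) or 4 (0.103) or control replicate 3 (0.0964) or 4 (0.0929), and was absent with quantile normalization (adjusted p = 0.523) or median-of-ratios scaling, where the log2 change was -0.04 (adjusted p = 0.745). Over all alternatives its adjusted p ran from 0.00642 to 0.745.

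**Figure D2:**
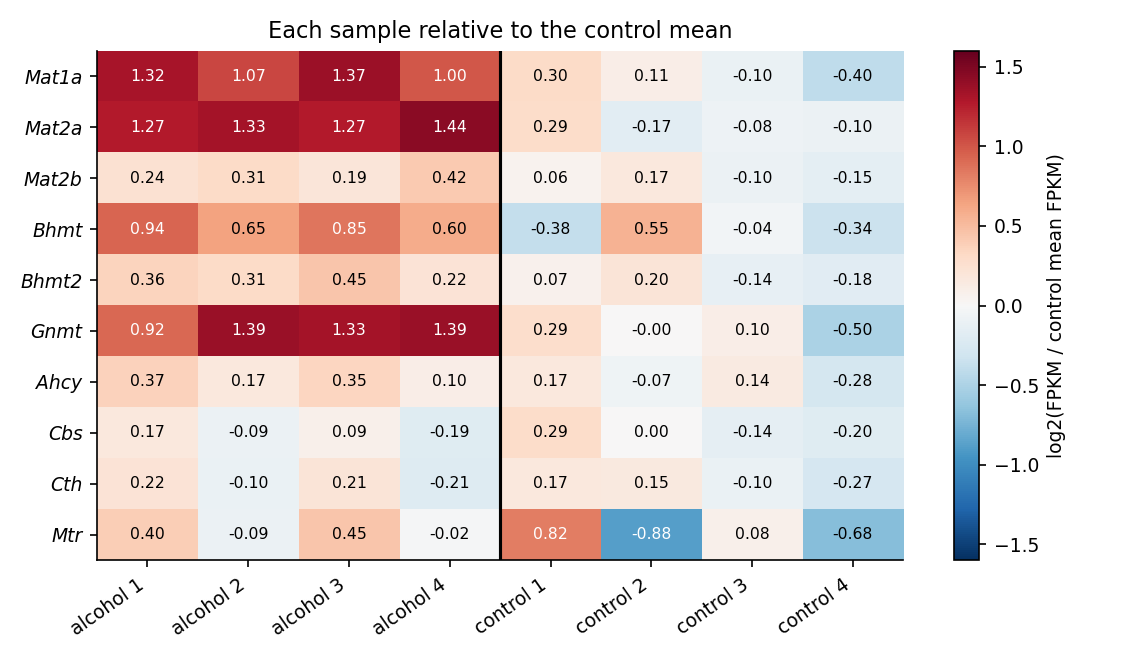
Each sample's log2 ratio of FPKM to the control mean of the same gene, with alcohol samples in the left 4 columns and control samples in the right 4. Mat2a ran from 1.27 to 1.44 in the alcohol samples, and Cbs and Cth lay on both sides of 0 in both groups.

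SAM use and removal of its product were read from Gnmt and Ahcy. Gnmt methylates glycine and so consumes SAM when it is in excess, and Ahcy splits S-adenosylhomocysteine, an inhibitor of methyltransferases, into homocysteine and adenosine. Gnmt (chr17:46725664-46729168, minus strand) stood at 1528, 2113, 2040 and 2114 FPKM with alcohol, against 987.1, 809.3, 870.4 and 570.6 FPKM in controls. Alcohol replicate 1 was the lowest of its group and still above every control sample. The log2 change was 1.28 ± 0.19 (SE; limma adjusted p = 0.000273), with means of 1949 ± 282.6 FPKM with alcohol and 809.4 ± 175.4 FPKM in controls (SD, n = 4 each).

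Ahcy (chr2:155059310-155074497, minus strand) stood at 615.1, 532, 603.9 and 508.5 FPKM with alcohol and 532.5, 453.6, 522.2 and 389.6 FPKM in controls. The groups overlapped, and the log2 change of 0.26 ± 0.14 did not pass the threshold (95% interval -0.05 to 0.56; limma adjusted p = 0.129), though it did on the TPM scale (0.40; adjusted p = 0.0417), and it was -0.08 with median-of-ratios scaling. Its adjusted p ran from 0.0417 to 0.644 over the alternatives. Gm4737, a protein-coding gene, is 99.7% identical to Ahcy over 2086 bases, and Gm9826, a pseudogene, 99.2% over 1299 bases, so how reads were divided between them is uncertain. Within each library, the ratio of Gnmt to Ahcy was 2.48, 3.97, 3.38 and 4.16 in alcohol samples against 1.85, 1.78, 1.67 and 1.47 in control samples. That ratio was chosen after the values were seen and has no test, and its groups did not overlap.

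Remethylation of homocysteine was read from Bhmt, which uses betaine, Bhmt2, which uses S-methylmethionine, and Mtr, the cobalamin-dependent methionine synthase. Bhmt (chr13:93616675-93637961, minus strand) stood at 2256, 1851, 2134 and 1783 FPKM with alcohol, against 905.5, 1732, 1149 and 933.9 FPKM in controls. Control replicate 2 was far above the other 3 controls and just below the lowest alcohol sample. The means were 2006 ± 225.5 FPKM with alcohol and 1180 ± 383.8 FPKM in controls (SD, n = 4 each), a log2 change of 0.81 ± 0.21 (SE; limma adjusted p = 0.0067). After median-of-ratios scaling Bhmt stood at a log2 change of 0.47, not past the threshold (adjusted p = 0.0872, the highest of a range from 0.0009 over the alternatives). Gm5096, a protein-coding gene, is 99.4% identical to Bhmt over 1869 bases, and an antisense gene, Gm15622, overlaps its exons, so its reads are uncertain too.

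Bhmt2 (chr13:93655720-93674302, minus strand) stood at 110.4, 106.4, 117.1 and 100.4 FPKM with alcohol, against 90.55, 99.16, 78.38 and 76.11 FPKM in controls. The lowest alcohol sample was just above the highest control sample. The log2 change was 0.34 ± 0.11 (limma adjusted p = 0.0265), lost without alcohol replicate 1 (0.0509) or 3 (0.0683) or control replicate 3 (0.0815) or 4 (0.0749), and it was 0.00 with median-of-ratios scaling (0.978). Its adjusted p ran from 0.00726 to 0.978 over the alternatives. Mtr (chr13:12182712-12258113, minus strand) lay below the minimum, at 0.217, 0.154, 0.224 and 0.163 FPKM with alcohol and 0.291, 0.0894, 0.174 and 0.103 FPKM in controls. These values rest on 56 to 84 reads in alcohol samples and 30 to 99 reads in control samples. The groups overlapped widely, and in a fit of all 21049 genes the log2 change of Mtr was 0.03 ± 0.05 (limma adjusted p = 0.683). Adding 1 to values this low shrinks both the change and its SE, so that fit does not exclude a change of Mtr.

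Transsulfuration was read from Cbs, which joins homocysteine and serine to cystathionine, and Cth, which splits cystathionine to cysteine. Cbs (chr17:31608894-31637238, minus strand) stood at 88.21, 73.71, 83.13 and 68.62 FPKM with alcohol and 95.79, 78.36, 70.93 and 68.22 FPKM in controls. Cth (chr3:157894248-157925077, minus strand) stood at 151.3, 121.3, 150.2 and 112.3 FPKM with alcohol and 146.4, 144.4, 121.1 and 108.2 FPKM in controls. Both genes overlapped between the groups. Log2 changes were 0.01 (95% interval -0.28 to 0.30; limma adjusted p = 0.967) for Cbs and 0.04 (-0.28 to 0.36; 0.827) for Cth. Their signs depended on the libraries used: the log2 change of Cbs was below 0 without alcohol replicate 1 or 3 or control replicate 3 or 4 and ran from -0.05 to 0.11 over all 8 such fits, and that of Cth was below 0 without alcohol replicate 1 or 3 or control replicate 4 and ran from -0.04 to 0.12. With median-of-ratios scaling, Cbs was lower (log2 change -0.33; adjusted p = 0.0405) and Cth was at -0.30 (0.0871). Over the alternatives the adjusted p ran from 0.0405 to 0.976 for Cbs and from 0.0871 to 0.996 for Cth.

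**Figure D3:**
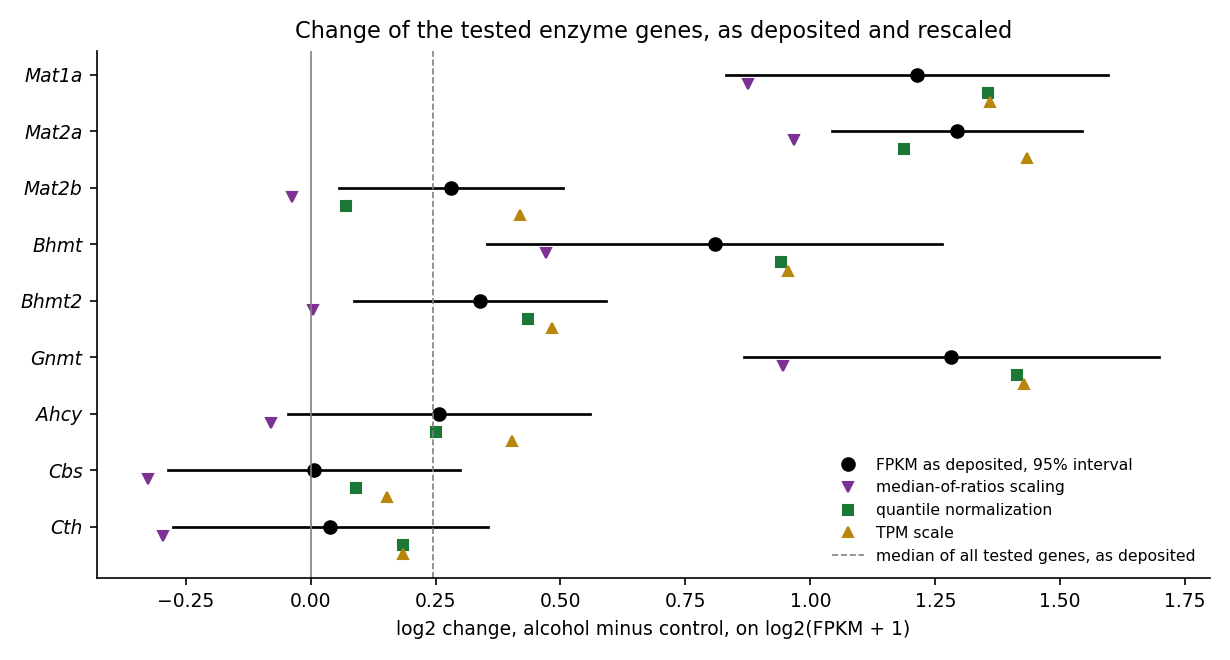
Log2 change of the 9 tested enzyme genes, alcohol minus control, with the 95% interval as deposited and the point values under 3 other scalings, beside the median of all tested genes. The intervals of Mat2a, Gnmt and Mat1a lie right of 0.83, and those of Ahcy, Cbs and Cth cross 0.

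Ratios within a library do not move with the library's scaling, and they show which enzymes changed unequally. Mat2a as a percentage of Mat1a was 1.99, 2.47, 1.94 and 2.8 in alcohol samples and 2.05, 1.70, 2.10 and 2.56 in control samples, and the groups overlapped. Mat2b to Mat2a was 0.417, 0.417, 0.401 and 0.42 with alcohol against 0.723, 1.069, 0.837 and 0.815 in controls, a mean difference of -1.04 on the log2 scale with no overlap. Cth to Cbs was 1.71, 1.65, 1.81 and 1.64 with alcohol and 1.53, 1.84, 1.71 and 1.59 in controls, with overlap. Bhmt to Mtr, which rests on the few reads of Mtr, ran from 9530 to 11990 with alcohol and from 3109 to 19370 in controls, also with overlap. Cbs as a percentage of Mat1a, a ratio added after the values were seen, was 4.05, 4.02, 3.71 and 3.95 with alcohol against 8.93, 8.34, 8.78 and 10.4 in controls. Every alcohol sample was below every control sample in that ratio. No ratio has a p-value, because the genes were chosen with results of these data known.

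**Figure D4:**
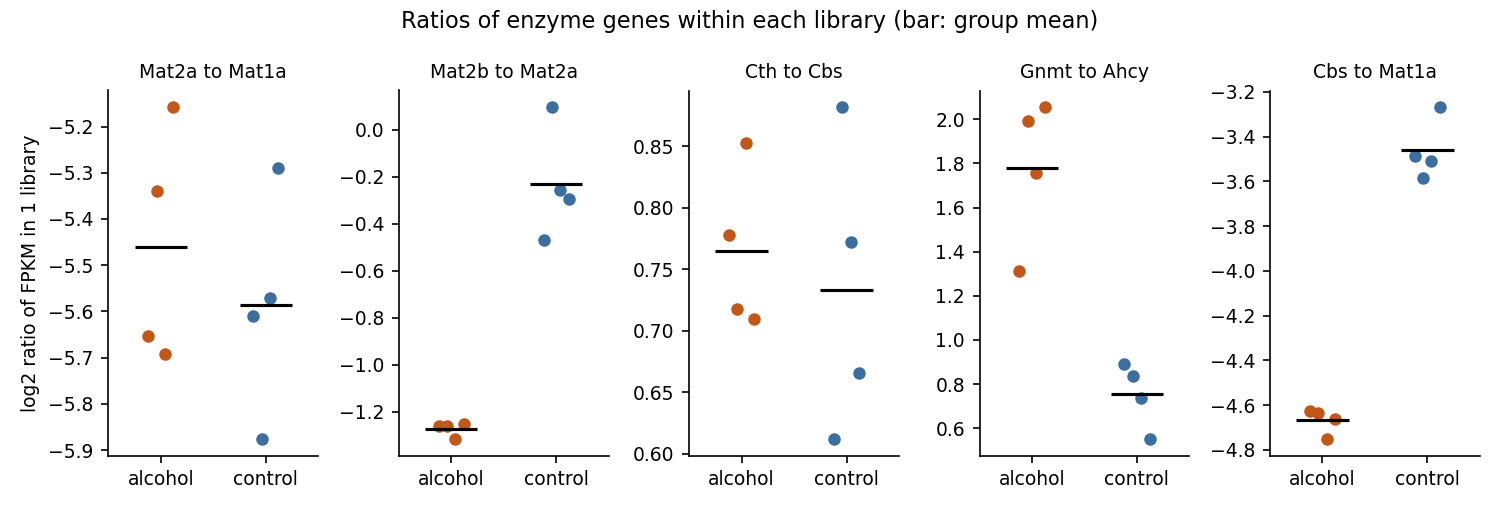
Log2 ratio of 2 enzyme genes within each library, 1 point per sample, alcohol left and control right, with a bar at the group mean and a separate axis for each ratio. Mat2b to Mat2a, Gnmt to Ahcy and Cbs to Mat1a do not overlap between the groups, while Mat2a to Mat1a and Cth to Cbs do.

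The samples did not rank alike over the 10 genes. Alcohol replicates 1 and 3 were the highest pair of their group for 7 genes (Mat1a, Bhmt, Bhmt2, Ahcy, Cbs, Cth and Mtr), and alcohol replicates 2 and 4 for Mat2a, Mat2b and Gnmt. Control replicate 1 was the highest of its group for 7 genes and control replicate 4 the lowest for 7. Alcohol replicates 2 and 4 were also far more alike than any other pair across all genes, with a chi-square of 10.1 per gene against 56.6 to 234 for the other pairs of a group. Counting them as 1 sample left 5 enzymes higher, with Mat2b lost (adjusted p = 0.0843).

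Genes that feed the cycle with betaine, cobalamin and folate were divided. Of 16 tested, 5 were higher and 4 lower, beside 44.2% and 13% of all tested genes, with a median log2 change of 0.04. With median-of-ratios scaling 1 was higher and 8 were lower. Mtrr, which reactivates methionine synthase, averaged 2.95 ± 0.172 FPKM with alcohol and 1.46 ± 0.246 FPKM in controls (SD, n = 4 each; log2 change 0.69; limma adjusted p = 0.000206). Tcn2, the plasma carrier of cobalamin, and Mmadhc, which routes it inside the cell, were higher by 0.62 and 0.57 on the log2 scale, though not past the threshold under median-of-ratios scaling. Mthfd1, a folate enzyme, was lower, at 24.55 ± 3.34 FPKM with alcohol and 44.05 ± 4.02 FPKM in controls (log2 change -0.82; limma adjusted p = 0.000244).

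Of 13 genes listed as small-molecule methyltransferases, 5 were lower and 2 higher, beside 13% and 44.2% of all tested genes, with a median log2 change of -0.10. Under median-of-ratios scaling 8 were lower and 1 higher, and under quantile normalization 7 were lower and 1 higher. In that list 1 of the 2 higher genes encodes an enzyme that methylates proteins. Its call was lost with median-of-ratios scaling or quantile normalization. Hnmt, which methylates histamine, averaged 9.60 ± 0.634 FPKM with alcohol and 16.3 ± 2.70 FPKM in controls (SD, n = 4 each; log2 change -0.70; limma adjusted p = 0.000713). Tpmt, which methylates thiopurines, was lower by a log2 change of -0.52, and As3mt, which methylates arsenic, was higher by 0.57. In the list for DNA, RNA and protein methylation, the DNA methyltransferases fell below the minimum of 1 FPKM and were not tested. A fit of all 21049 genes, which called 5101 higher and 1345 lower, did include them. There Dnmt3a averaged 0.8147 FPKM with alcohol and 0.3295 FPKM in controls (limma adjusted p = 0.00118), and Dnmt3b 0.5361 and 0.0905 FPKM (0.000343). Dnmt1 averaged 0.7303 and 0.8111 FPKM (0.564). These genes were named after their values were seen. Of the 6 tested genes, all for RNA or protein, 5 were higher, or 3 without control replicate 2. Among them Prmt5 and Carm1, which methylate arginine, rose by 0.56 and 0.45 on the log2 scale, and Mettl3, which methylates adenosine in mRNA, by 0.39. With median-of-ratios scaling or quantile normalization 1 of the 6 passed. Of 3 adenosine and AHCY-like genes 1 passed: Ahcyl1 was higher by 0.45, though not past the threshold under median-of-ratios scaling.

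Polyamine synthesis, which draws on decarboxylated SAM, held the largest rise of these lists. Odc1, the enzyme that makes putrescine, averaged 55.75 ± 5.66 FPKM with alcohol and 14.18 ± 6.57 FPKM in controls (SD, n = 4 each; log2 change 1.98; limma adjusted p = 5.42e-05). Amd1, which decarboxylates SAM, averaged 12.9 ± 1.22 FPKM with alcohol and 7.45 ± 1.17 FPKM in controls (limma adjusted p = 0.000538), and Sat1, which acetylates polyamines, and Srm, the spermidine synthase, were higher by 0.73 and 0.48 on the log2 scale. The call of Srm was absent under median-of-ratios scaling. Of 10 tested genes for SAM transport, polyamines and methionine salvage, 5 were higher and 3 lower, beside 44.2% and 13% of all tested genes. With median-of-ratios scaling 3 were higher and 4 lower. The lower count was 0 without control replicate 2 and 1 without alcohol replicate 1 or 4 or control replicate 3 or 4.

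Downstream of Cth, 4 of 13 genes for the fates of cysteine were higher and 3 lower, beside 44.2% and 13% of all tested genes. Without control replicate 3, 1 was lower, and with median-of-ratios scaling 1 was higher and 5 were lower. Cdo1, which oxidises cysteine on the way to taurine, averaged 1143 ± 136 FPKM with alcohol and 721.7 ± 41.8 FPKM in controls (SD, n = 4 each; log2 change 0.66; limma adjusted p = 0.00146), and Kyat1, a cysteine conjugate lyase, 59.37 ± 11.2 FPKM with alcohol and 33.34 ± 3.44 FPKM in controls (0.80; 0.000618). Ado, which oxidises cysteamine, was higher by 0.40, and Papss1, which activates sulfate, was lower at -0.40. Of 6 genes for glutathione synthesis 1 was higher (and 1 lower without alcohol replicate 1), Gss, glutathione synthetase, at 60.68 ± 9.27 FPKM with alcohol and 42.69 ± 6.25 FPKM in controls (log2 change 0.50; limma adjusted p = 0.0117). The calls of Cdo1 and Gss were lost with median-of-ratios scaling, and that of Ado also with quantile normalization.

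**Figure D5:**
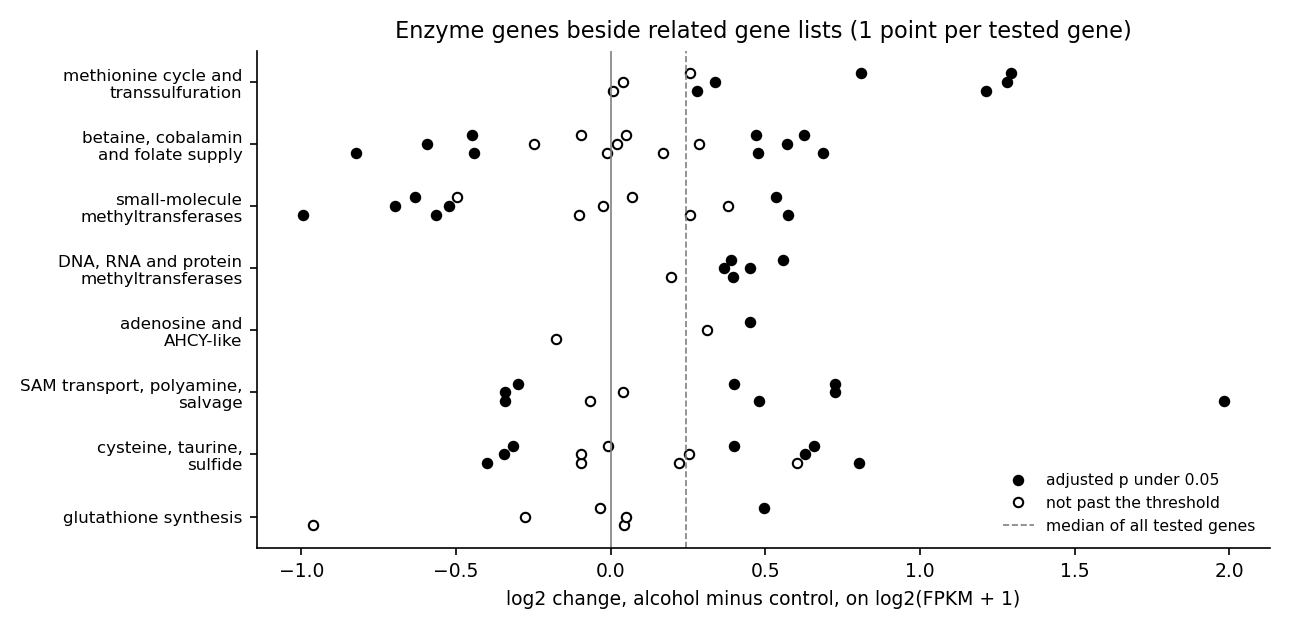
Log2 change, alcohol minus control, of each tested gene in the enzyme list and 7 related lists, with filled points past an adjusted p of 0.05 and a dashed line at the median of all tested genes. Mat1a, Mat2a and Gnmt lie above 1.2 in the top line, and Odc1 is the point at 1.98.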

How the data were processed

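Per the labels' protocols, column-purified RNA was made into mRNA libraries with a SMARTER kit. The aligner, counter and strandedness have no mention in the labels. FPKM values for 21049 genes in 8 columns are the authors' deposited unit, and the submitters' processing notes name GRCm38 and mm10. Whole reads recovered from the FPKM (21044 genes, 99.98%, to a tolerance of 1e-06) gave library totals of 33872595 to 38407511.

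The R 4.3.3 package limma 3.58.1 was fitted to log2(FPKM + 1) of the 9228 genes that averaged 1 FPKM or more, with a trend on mean level, 2-sided tests and Benjamini-Hochberg adjustment over all tested genes at 0.05. This scale understates changes of low genes. The code was tested on simulated data in which few genes changed, equally in both directions. That simulation therefore cannot speak to the choice of scaling. Members and lists were chosen with earlier results of these data known. All 10 enzymes are named, with up to 4 genes of each related list by smallest p and the 2 most abundant of each marker list; the marker genes are given almost only as counts and sums, and 1 gene of a related list is not reported here. Coordinates are from GENCODE M21 on GRCm38, promoters from RefSeq. Near copies were annotated transcripts aligned over at least 1000 bases at 90% identity or more. Protein sequences were not used here.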

Additional observations from a re-analysis of the deposited data

Results flagged for a closer look

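In 2 of 20 groups of 4 values, 1 sample stood apart from the other 3 by more than the Dixon 95% critical value for the gap over the range, a limit that chance passes in about 1 of 20 groups. Gnmt in alcohol replicate 1 was at 1528 FPKM, below the other 3 alcohol samples (gap over range 0.874). Mat2a in control replicate 1 was at 21.99 FPKM, above the other 3 control samples (gap over range 0.833). Neither sample overlapped the other group. Without alcohol replicate 1 the log2 change of Gnmt was 1.40, and without control replicate 1 that of Mat2a was 1.39.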

How the results depend on the processing

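Mat1a, Mat2a and Gnmt were higher under every alternative run, with log2 changes of 1.09 to 1.32, 1.24 to 1.39 and 1.12 to 1.40 when 1 library was left out. With quantile normalization 2270 genes were higher and 2275 lower, and with median-of-ratios scaling 2170 higher and 2616 lower, with 3 enzymes higher and 1 lower. Median-of-ratios scaling turned the log2 changes of Mat2b (-0.038), Ahcy (-0.08), Cbs (-0.33) and Cth (-0.30) below 0, and scaling outside the 100 most abundant genes those of Cbs (-0.033) and Cth (-0.001). Leaving out 1 library gave 3537 to 4362 genes higher and 1000 to 1278 lower, 4 to 6 enzymes higher, 0.24 to 0.34 for Mat2b, 0.70 to 1.01 for Bhmt, 0.28 to 0.41 for Bhmt2, 0.17 to 0.32 for Ahcy, -0.054 to 0.107 for Cbs and -0.044 to 0.119 for Cth. The ratios kept their side under every alternative run except Cth to Cbs (-0.01 to 0.08). The cause of these shifts was not tested. Samples with the same number correlated at 0.071 to 0.349, and those with different numbers at -0.425 to 0.29. Of the alcohol samples, 2 correlated best with the control of their own number. These values do not settle whether the numbers are pairs. A fit with the replicate block gave 4307 genes higher and 1380 lower and changed no enzyme's call. Among the lists its largest relative shifts raised adenosine and AHCY-like genes called higher to 2. They also raised the genes called lower to 2 for glutathione, 2 for Kupffer cell markers and 1 for cholangiocyte markers. Smaller shifts included small-molecule methyltransferases called lower at 6, cysteine genes called higher at 5 and periportal genes called higher at 2. The planned edgeR test of recovered reads was not run; limma voom on them, added after seeing the data, called 6 enzymes higher. Mtr, at under 100 reads in each library, is limited by depth.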
